A study of Mus musculus with 12 samples.

Results

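The genes described here are 37 enzymes and carriers of glycolysis, lactate and pyruvate handling, the tricarboxylic acid (TCA) cycle and the malate-aspartate shuttle. They were chosen by symbol from a list of pathway genes by a rule that uses no measured value, though with earlier results of these data known. All 37 were found among the 43346 annotated genes of the deposited tables. The list holds 14 glycolysis genes, 2 lactate dehydrogenase genes, 6 genes of pyruvate entry, 10 TCA cycle genes, 2 NADP-dependent isocitrate dehydrogenases and 3 malate-aspartate enzymes. A further 63 related genes (other isozymes, partner enzymes, regulators and transporters) are given for context.

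Glycolysis splits glucose into pyruvate in the cytosol, and pyruvate is then either reduced to lactate or carried into mitochondria, where the pyruvate dehydrogenase complex turns it into acetyl-CoA for the TCA cycle. Many steps can be run by several isozymes, encoded by separate genes or by alternative exons, that differ in kinetics and in the tissues that express them. Purkinje cells are large, spontaneously firing output neurons of the cerebellar cortex whose ion pumping uses much ATP.

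RNA was measured in 12 libraries made from a single homogenate of 13 excised Purkinje cells of 1 male mouse, a 14-month-old B6CASTF1/J hybrid of Castaneus and C57Bl6. Each library received an input of 1 cell-equivalent, RNA longer than 200 nucleotides and spike-in RNA, and was made by a Smart-seq protocol. There was 1 group, with no treatment named in the labels and no control group. The libraries are named by their technical replicate numbers, 1 to 6 and 8 to 13. Because they are splits of 1 pool from 1 animal, every p-value measures the technical spread between splits and says nothing of other cells or animals, and the amount of RNA per cell cannot be told apart from the number of cells of a type.

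The libraries held 15167444 to 27806010 expected counts (20509107 ± 4364356, mean ± SD, n = 12), of which 4.78% to 14.6% fell on spike-ins. Libraries 13, 1 and 4 had the lowest spike-in shares, at 4.78%, 5.17% and 6.12%, and the other 9 lay between 9.24% and 14.6%. The same 3 libraries had the highest summed level over the Malat1 locus, which encodes an abundant nuclear RNA, at 339117 TPM in library 1, 154438 TPM in library 4 and 144043 TPM in library 13. All 10 Purkinje cell markers reached 50 counts in every library, with a summed level of 18163 to 32508 TPM (the length-scaled share of a library's transcripts). Bergmann glia and astrocyte markers summed to 1479 to 4019 TPM, with 8 of 10 counted in every library. Granule cell markers summed to 85.9 to 801 TPM and red blood cell markers to 362 to 1551 TPM. Oligodendrocyte markers summed to 91.3 to 375 TPM, microglial markers to 0 to 446 TPM and endothelial and mural markers to 0 to 290.1 TPM, with the microglial C1qc and the endothelial Cldn5 at 0 in all 12 libraries. Of these lists, 6 of 8 granule cell, 3 of 5 red blood cell, 3 of 6 oligodendrocyte, 0 of 7 microglial and 0 of 6 endothelial and mural markers were counted in all 12 libraries. The part of glial and other RNA in the levels below was not tested.

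Together the 37 genes took 1.86% ± 0.402 of the gene counts and 12418 ± 2399 TPM (n = 12), from 7286 TPM in library 1 to 15200.0 TPM in library 11. Of the 37, 32 had an expected count of at least 1 in every library, as against 8.46% of all annotated genes. At 50 counts in every library there were 26, as against 3.72% of all genes. The 5 genes without a count in at least 1 library were Hk2, Pfkp, Dlat, Idh1 and Idh2. Detection was also compared within wide bins of mean TPM, inside which the levels of members and other genes were not matched. Among genes with a mean of 100 to 1000 TPM, 17 of 19 members (89.5%) had 50 counts in every library beside 72.1% of all genes of that bin. Among genes of 10 to 100 TPM it was 5 of 14 (35.7%) beside 13.7%.

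**Figure D1:**
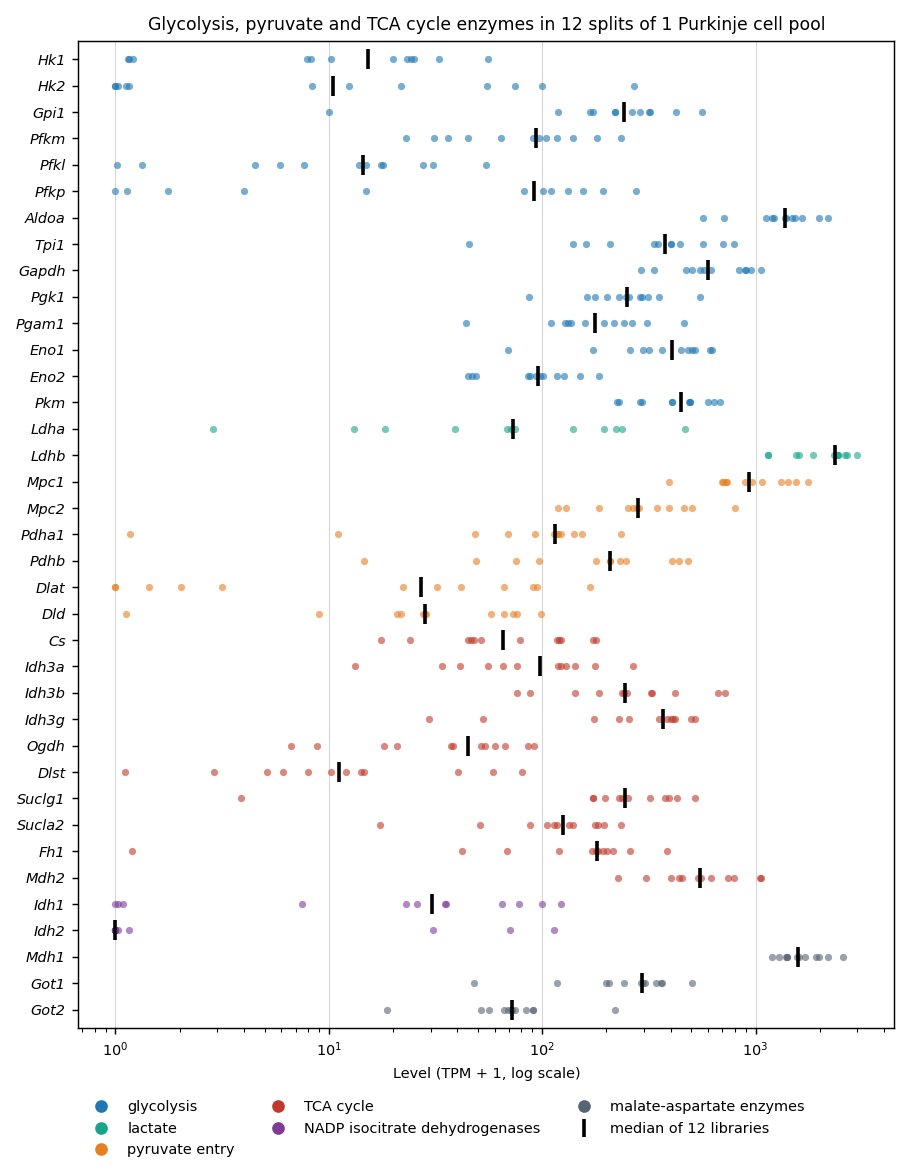
Level of each of the 37 genes in TPM + 1 on a log axis, in pathway order from top to bottom, with 1 point for each of the 12 libraries and a black tick at their median. Ldhb, Mdh1, Aldoa and Mpc1 lie furthest to the right with narrow ranges, while Hk2, Pfkp, Dlat, Idh1 and Idh2 reach 0 in at least 1 library.

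The 4 genes with a mean over 1000 TPM came from 4 different stages of the pathway. Ldhb, the heart-type lactate dehydrogenase subunit (chr6:142490249-142507957, mm10), ran from 1137 TPM in library 6 through a median of 2369 to 2998 TPM in library 5, and ranked 34 among all genes by mean TPM. Mdh1, the cytosolic malate dehydrogenase, ran from 1192 through 1574 to 2573 TPM. Aldoa, the muscle-type aldolase, ran from 567 TPM in library 13 through 1376 to 2194 TPM in library 12. Both Mdh1 and Aldoa were lowest in library 13, which had the lowest spike-in share, and for Mdh1 the highest library was 2.16 times the lowest. Mpc1, a subunit of the mitochondrial pyruvate carrier, ran from 390.5 TPM in library 3 through 928 to 1755 TPM in library 11.

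Glucose is first phosphorylated by hexokinase, and this step had the lowest transcript levels of glycolysis together with Pfkl. Hk1, the hexokinase typical of brain, ran from 0.150 through 14.2 to 54.9 TPM and was at 0.210 TPM or below in libraries 3, 9 and 11. Hk2, the hexokinase typical of muscle, was at 0 in libraries 2 and 8, had a median of 9.43 TPM and reached 269 TPM in library 10. Library by library the lead changed: Hk1 was higher in 6 libraries and Hk2 in 6, and the mean difference of log2(TPM + 1) was 0.061 ± 3.61 (SD, n = 12; adjusted p = 0.955, exact two-sided sign-flip permutation test with Benjamini-Hochberg adjustment over the 22 comparisons). The Hk2 level was then divided by transcript. Of the mean Hk2 level of 44.7 TPM, 41.6 TPM was assigned to Hk2-202, a transcript annotated without a coding sequence that lies inside the last exon of Hk2-201, and the protein-coding transcripts held 3.04 ± 4.17 TPM. With protein-coding transcripts only, a comparison added after seeing the data, Hk1 was higher than Hk2 by 1.92 on the log2 scale (adjusted p = 0.0304, same test). That setting leaves out all reads assigned to Hk2-202. On CPM (gene counts scaled to the library total, without transcript length), which keeps them, the difference did not pass (1.45, adjusted p = 0.305, same test).

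Gpi1, which isomerises glucose 6-phosphate, ran from 9.00 TPM in library 12 through 241 to 563 TPM. Phosphofructokinase, the committed step, is built from muscle, liver and platelet subunits. Pfkm, the muscle type, ran from 22.1 through 92.6 to 232 TPM, with no library under 50 counts. Pfkp, the platelet type, had a similar median of 90.2 TPM but ranged from 0 in library 8 to 273 TPM in library 3. Pfkl, the liver type, ran from 0.0200 through 13.4 to 53.3 TPM. Pfkm exceeded Pfkl in 11 of 12 libraries, by 2.98 ± 1.99 on the log2(TPM + 1) scale (adjusted p = 0.00293, exact sign-flip test). Pfkp and Pfkm each led in 6 libraries and their difference did not pass (-1.55 ± 3.25, adjusted p = 0.174), although on CPM it did (-2.43, adjusted p = 0.0476). Pfkp against Pfkl did not pass either (1.42 ± 3.90, adjusted p = 0.250). As shares of the summed phosphofructokinase level, Pfkm took 51.3% ± 25.1, Pfkp 36.8% ± 29.5 and Pfkl 11.9% ± 17.9, so none of the 3 was steady from library to library.

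Aldolase was shared between Aldoa and Aldoc, the brain-type aldolase that marks zebrin-positive Purkinje cells. Aldoc, which is not among the 37 genes, was at 1959 ± 464 TPM and took 59.5% ± 5.38 of the summed aldolase level. Its share ran only from 52.8% to 71.1%, with Aldoc above Aldoa in 12 of 12 libraries. Of the next steps, Tpi1, which interconverts the triose phosphates, ran from 44.5 TPM in library 3 through 374 to 789.8 TPM in library 11. Gapdh, the dehydrogenase that makes the first NADH of glycolysis, ran from 289 through 596 to 1061 TPM. Pgk1, an X-linked kinase that makes ATP, ran from 86.2 through 250.1 to 548 TPM. Pgam1, the mutase that follows it, ran from 43.0 through 176 to 463 TPM.

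Enolase showed a lead for the widely expressed gene over the neuronal one. Eno1 ran from 68.5 TPM in library 1 through 404 to 624 TPM. Eno2, which encodes neuron-specific enolase, ran from 44.1 through 94.3 to 183 TPM. Eno2 was lower than Eno1 in 11 of 12 libraries, by a mean log2 difference of -1.91 ± 1.13 (adjusted p = 0.00239, exact sign-flip test), and the exception was library 1, where the difference was 0.76. Eno1 took 76.8% ± 15 of the summed enolase level.

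Pyruvate kinase, the last step of glycolysis, is a single gene here, Pkm (chr9:59656368-59679375, mm10, plus strand), which ran from 223 through 447 to 684 TPM. Its M1 and M2 products differ only in a pair of mutually exclusive exons, so the transcript table can tell them apart. The M1 type is known from adult muscle and brain and the M2 type from proliferating tissue. Each of the pair is coding, 167 bases long and exon 9 of 11 in its transcript, on the plus strand. They are printed below from the transcript sequences of the GENCODE M21 annotation, with mm10 positions, 5′ to 3′. Capitals mark the 64 of 167 positions where they differ (61.7% identical), because it is these letters that let reads be assigned to either form.
Pkm-202, M1-type exon, chr9:59675029-59675195: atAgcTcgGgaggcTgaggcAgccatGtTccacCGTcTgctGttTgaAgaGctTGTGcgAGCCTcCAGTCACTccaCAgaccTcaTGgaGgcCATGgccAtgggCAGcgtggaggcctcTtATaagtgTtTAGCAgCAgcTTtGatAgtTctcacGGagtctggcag
Pkm-201, M2-type exon, chr9:59675568-59675734: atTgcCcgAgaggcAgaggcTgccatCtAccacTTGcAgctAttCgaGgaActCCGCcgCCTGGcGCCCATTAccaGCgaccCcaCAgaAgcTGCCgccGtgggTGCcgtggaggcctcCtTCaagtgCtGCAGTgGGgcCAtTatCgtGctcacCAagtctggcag

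The M1-type transcript carried nearly all of the Pkm signal. Pkm-202 ran from 223 through 447 to 684 TPM and had at least 50 counts in 12 libraries. Pkm-201, the M2 type, was at or below 0.630 TPM in 11 libraries and at 58.8 TPM in library 13, where it made up 20.0% of Pkm. The M1 type was higher in 12 of 12 libraries, by 8.00 ± 2.01 on the log2(TPM + 1) scale (adjusted p = 0.00153, exact sign-flip test, the smallest this design and adjustment gave), and averaged 98.3% ± 5.77 of Pkm. Without library 13 the difference was 8.55. Library 13 also had the highest summed Bergmann glia and astrocyte markers (4019 TPM, where the 12 libraries averaged 2445 ± 743), the highest red blood cell markers (1551 TPM) and the highest endothelial and mural markers (290.1 TPM). Their part in its M2-type level was not tested.

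Lactate dehydrogenase was led by the same gene in every library. Ldha, the muscle-type subunit, ran from 1.86 TPM in library 10 through 72.0 to 464 TPM in library 5. Ldhb exceeded it in 12 of 12 libraries, by 4.93 ± 2.08 on the log2(TPM + 1) scale (adjusted p = 0.00153, exact sign-flip test), and made up 94.4% ± 5.15 of the summed level, between 83.7% and 99.9%. The 2 genes did not overlap: the lowest Ldhb value, 1137 TPM, lay above the highest Ldha value.

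**Figure D2:**
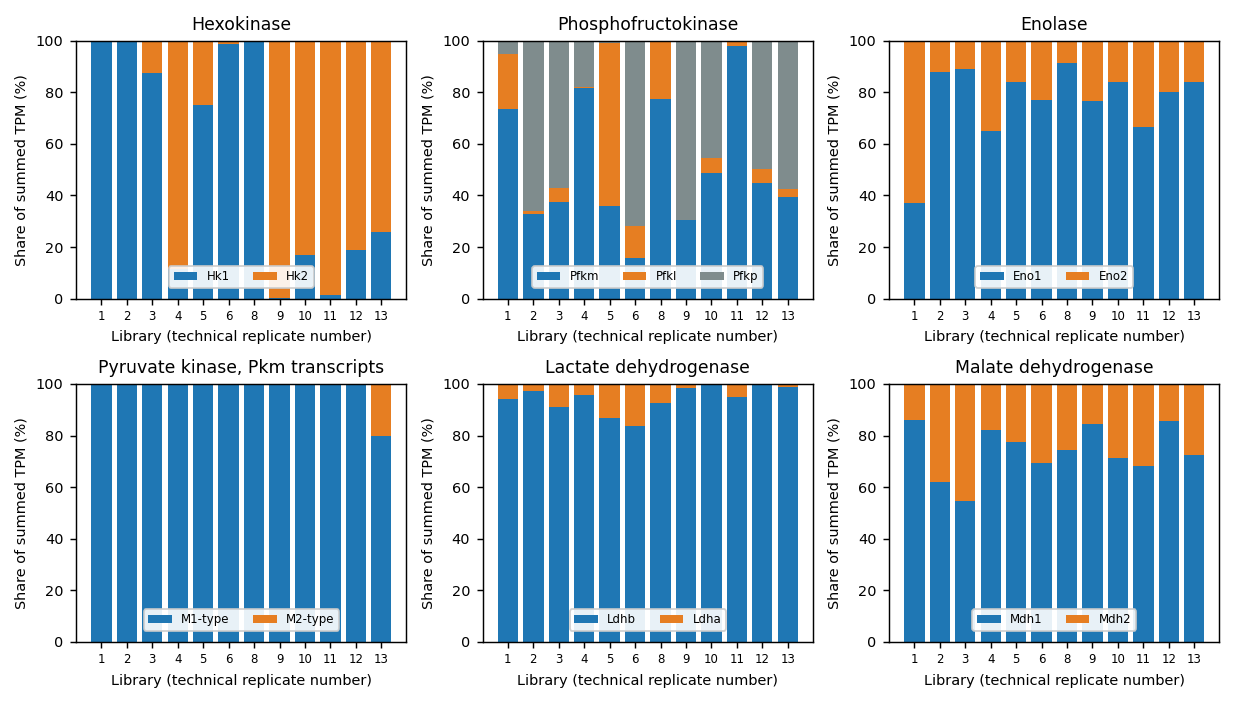
Share of the summed TPM (vertical axes, percent) held by each isozyme gene, or by the M1-type and M2-type Pkm transcripts, in each of the 12 libraries (horizontal axes). Ldhb, Mdh1 and the M1-type transcript led in all 12 libraries, Eno1 in 11, while the leading hexokinase and phosphofructokinase changed from library to library.

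Pyruvate enters mitochondria through a carrier of Mpc1 and Mpc2 subunits. Mpc2 ran from 118 TPM in library 13 through 279.7 to 800.4 TPM in library 11. It was lower than Mpc1 in 12 of 12 libraries, by a mean log2 difference of -1.69 ± 0.93 (adjusted p = 0.00153, exact sign-flip test). In the pyruvate dehydrogenase complex, which joins glycolysis to the TCA cycle, Pdhb (E1 beta subunit) ran from 13.7 through 207 to 483 TPM. Pdha1, the X-linked E1 alpha subunit, ran from 0.170 through 115 to 233 TPM, with both minima in library 10. Dlat, the E2 acetyltransferase, was at 0 in libraries 2 and 10, had a median of 26.1 TPM and reached 167 TPM in library 12. Dld, the E3 subunit shared with the 2-oxoglutarate dehydrogenase complex, ran from 0.120 through 27.4 to 97.8 TPM.

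Within the complex, Dlat was lower than Pdhb in 12 of 12 libraries (-3.57 ± 2.60, adjusted p = 0.00153, exact sign-flip test). Pdha1 was lower than Pdhb in 9 of 12 (-1.30 ± 1.84, adjusted p = 0.0487), a call lost in 9 of the 12 fits that left out a library (adjusted p up to 0.0974) and on CPM (-0.42, adjusted p = 0.557). Dld and Dlat did not differ by more than their spread (1.08 ± 2.94, adjusted p = 0.250). These are transcript levels and not subunit stoichiometry.

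Of the TCA cycle genes, Mdh2, the mitochondrial malate dehydrogenase, was the highest, from 226 through 545 to 1065 TPM. Cs, citrate synthase, which opens the cycle, ran from 16.6 through 64.5 to 177 TPM. Fh1, fumarase, ran from 0.200 TPM in library 2 through 179.9 to 384 TPM. The NAD-dependent isocitrate dehydrogenase is built from Idh3a, the catalytic alpha subunit, and the regulatory Idh3b and Idh3g. Idh3a ran from 12.3 through 96.7 to 266 TPM. Idh3b ran from 75.1 through 244 to 717 TPM, and the X-linked Idh3g from 28.5 through 369 to 517 TPM.

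Both regulatory subunits were above Idh3a in 10 of 12 libraries, Idh3b by 1.64 ± 1.53 (adjusted p = 0.00985, exact sign-flip test) and Idh3g by 1.60 ± 1.85 (adjusted p = 0.0264, same test) on the log2(TPM + 1) scale. The Idh3g call was lost without library 2 (adjusted p = 0.0512) and without library 11 (adjusted p = 0.0529). The deposited tables give part of both levels to transcripts without a full coding sequence: protein-coding transcripts held 68.3% of the mean Idh3b level and 62.8% of the mean Idh3g level. With protein-coding transcripts only, neither difference passed (0.86, adjusted p = 0.129, and 0.95, adjusted p = 0.0925), and neither passed on CPM (0.59, adjusted p = 0.285, and 0.49, adjusted p = 0.437). Idh3b and Idh3g led in 6 libraries each (0.038 ± 1.51, adjusted p = 0.955).

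The 2-oxoglutarate dehydrogenase genes were lower. Ogdh, the E1 subunit, ran from 5.63 through 44.0 to 90.8 TPM. Dlst, the E2 subunit, ran from 0.110 through 10.1 to 79.8 TPM. Ogdh was higher in 10 of 12 libraries (1.62 ± 2.03, adjusted p = 0.0322, exact sign-flip test), a call lost when library 2, 5, 8, 11 or 13 was left out (adjusted p up to 0.0645). Ogdh also exceeded its related gene Ogdhl in 11 of 12 libraries (3.57 ± 2.25, adjusted p = 0.00293, same test), a call lost without libraries 1 to 5 (3.53, adjusted p = 0.0529).

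Succinyl-CoA ligase makes a nucleoside triphosphate within the cycle, ATP with the Sucla2 beta subunit and GTP with the Suclg2 beta subunit. Sucla2 ran from 16.3 TPM in library 5 through 125 to 234 TPM, while Suclg2 had a median of 0 and reached 15.8 TPM in that same library 5. Sucla2 was higher in 12 of 12 libraries (6.22 ± 2.23, adjusted p = 0.00153, exact sign-flip test). Suclg1, the shared alpha subunit, ran from 2.86 TPM in library 12 through 243 to 517 TPM, and its difference from Sucla2 did not pass (0.84 ± 2.09, adjusted p = 0.248). Without library 12 it did (1.33, adjusted p = 0.00430).

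The cytosolic and mitochondrial arms of the malate-aspartate shuttle, which moves reducing equivalents from cytosolic NADH into mitochondria, were compared next. Mdh1 was above Mdh2 in 12 of 12 libraries, by 1.59 ± 0.75 on the log2(TPM + 1) scale (adjusted p = 0.00153, exact sign-flip test). Got1, the cytosolic aspartate aminotransferase, ran from 46.7 TPM in library 10 through 293 to 501 TPM. Got2, the mitochondrial form, ran from 17.8 through 70.9 to 218 TPM. Got1 was higher in 11 of 12 libraries (1.75 ± 1.21, adjusted p = 0.00239, same test). In both pairs the cytosolic gene had the higher transcript level, with mean shares of 74.0% ± 9.73 for Mdh1 and 74.7% ± 12.9 for Got1.

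The NADP-dependent isocitrate dehydrogenases, which supply NADPH, were at the low end. Idh1, the cytosolic form, was at 0 in library 11, had a median of 29.5 TPM and reached 121 TPM in library 2. Idh2, the mitochondrial form, had a count in 5 of 12 libraries and a median of 0, with 113 TPM in library 6, where most was assigned to the retained-intron transcript Idh2-206 (90.3 TPM). Idh1 was higher in 8 libraries and Idh2 in 4, and the difference did not pass (-2.52 ± 3.68, adjusted p = 0.0638, exact sign-flip test). It passed on CPM (-3.42, adjusted p = 0.0240), with protein-coding transcripts only (-2.83, adjusted p = 0.0314) and without library 9 (-3.19, adjusted p = 0.0230). Without libraries 1 to 5 it was -1.05 (adjusted p = 0.602, same test), with Idh2 higher in 4 libraries and Idh1 in 3.

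**Figure D3:**
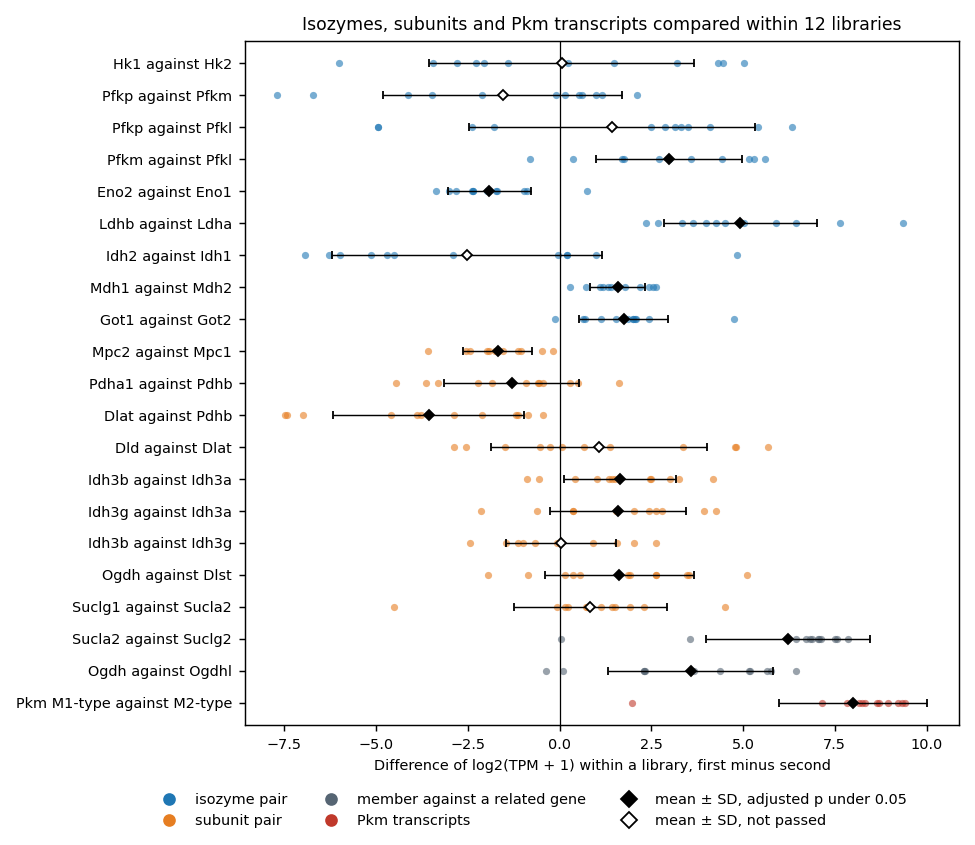
Difference of log2(TPM + 1) within each library, first gene minus second, for 21 of the 22 comparisons, with 1 point per library and the mean ± SD as a diamond, filled where the adjusted p was under 0.05. The 14 filled diamonds include 6 comparisons with all 12 points on 1 side of 0, while Hk1 against Hk2 and Idh3b against Idh3g straddle it.

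Of the 22 comparisons 15 passed, and 7 of these went the same way in 12 of 12 libraries. Among these 7 were Ldhb over Ldha, Mdh1 over Mdh2, Mpc1 over Mpc2, Pdhb over Dlat, Sucla2 over Suclg2 and Pkm M1-type over M2-type.

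Some members have near-identical copies elsewhere in the genome, mostly processed pseudogenes, and the division of reads between a gene and its copies is uncertain. A copy was taken as an annotated gene that does not overlap the member and matches it at 95% identity or more over at least 300 bases, a threshold chosen after seeing the data, and 10 members had at least 1. For Eno1 the tables assigned nearly as much to the copies as to the gene: Eno1b, at 99.5% identity, had 286 ± 147 TPM and the pseudogene Gm4735 98.5 ± 67.2 TPM, together 49.3% ± 9.96 of the sum. For Gapdh, 95 copies summed to 232 ± 71.9 TPM (26.8% ± 7.26 of the sum). For Mpc1, the pseudogene Mpc1-ps had 352 ± 149 TPM (25.7% ± 4.01). For Ldhb, the pseudogene Gm5514 had 442 ± 172 TPM (17.4% ± 3.95). Got2 copies held 10.1% ± 10.3 of the sum, and those of Pgk1, Gpi1, Pgam1, Pdhb and Ldha between 0.0849% and 6.55%. With the copies added to their genes, a setting added after seeing the data, the number of comparisons that passed stayed at 15.

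**Figure D4:**
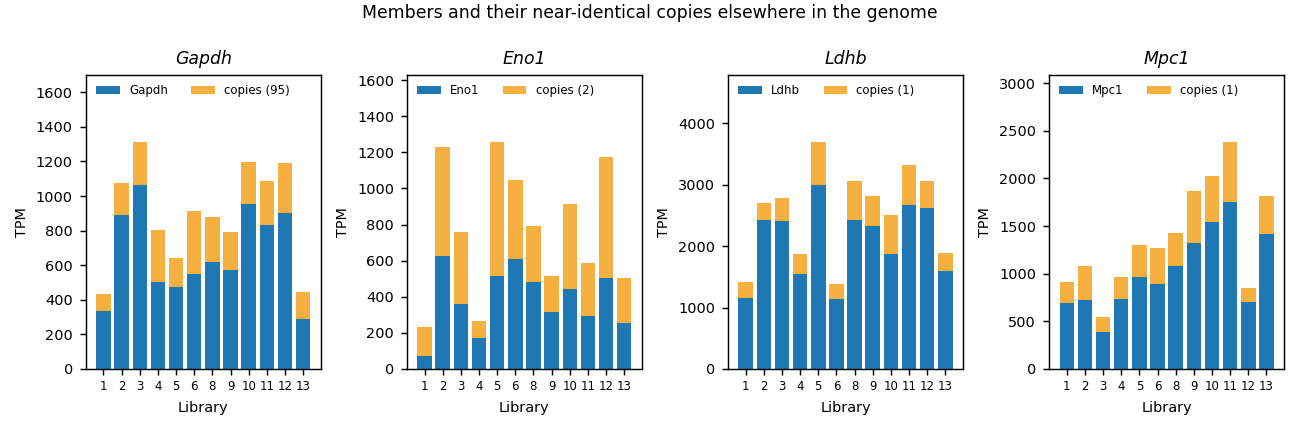
Level in TPM of Gapdh, Eno1, Ldhb and Mpc1 (blue) in each of the 12 libraries with the summed level of their near-identical copies stacked on top (orange), each panel on its own axis from 0. The copies of Eno1 hold between 35.2% and 70.2% of the stack, and the copy of Ldhb between 10.1% and 25.4%.

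Transcript assignment also varied. Of the 37 genes, 31 had several annotated transcripts in the tables, and 16 of these had the same leading transcript in every library while 15 did not. Mdh1-201 led in 12 of 12 libraries with 64.7% of the mean Mdh1 level and Mpc1-208 in 12 of 12 with 58.6% of that of Mpc1. Aldoa-201 led in 9 of 12 with 75.4%, and Pfkp-201 in 6 of 12 with 40.8%. For Dlat, protein-coding transcripts held 48.0% of the mean level, the rest falling mainly on a retained-intron transcript (Dlat-203, 12.2 TPM) and a processed transcript (Dlat-202, 8.28 TPM).

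The spread between libraries was next compared with that of other genes. In edgeR's quasi-likelihood fit on the expected counts of 13899 genes, 0 of 37 members varied more than the abundance trend and 0 of 37 varied less, at an adjusted p under 0.05, beside 0.0144% of all genes tested for more and 2.14% for less. With DESeq2 size factors both counts were also 0. At an unadjusted p under 0.05, 3 members lay above the trend (Ldhb, p = 0.0309, Pfkp, p = 0.0340, and Aldoa, p = 0.0359, edgeR) and 1 below it (Eno2, p = 0.0425, edgeR), none of which passed adjustment. These are 8.11% of the members beside 0.684% of all genes tested for more, and 2.70% beside 5.89% for less. The share over all genes was not taken at like level. The 100 genes with the highest mean count had a median variance of 1.62 times the trend, beside 1.20 for all genes tested. In simulated libraries of the same design, this test called 13.5% of 111 genes whose dispersion was raised 16 times and 0.629% of 159 raised 4 times. It thus missed most genes with excess spread of either size, and the 0 members called for more say little about excess spread. Of genes whose dispersion was lowered, it called 9% at 4 times lower and 93% at 16 times lower. Of the related genes, 0 of 47 tested were called in either direction.

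The coefficient of variation (SD over mean, from TPM) gave a description without a test. Each member was set against a window of 101 genes nearest in rank of mean TPM, itself included, a comparison added after seeing the data. Of the members, 24 had a lower coefficient than the median of their window and 13 a higher one, with a median ratio of 0.927. Ogdh (0.645 against 1.15) and Eno2 (0.430 against 0.760) had the lowest ratios. Hk2 (1.75 against 1.11) and Ldha (1.05 against 0.748) had the highest. For the 3 members above the edgeR trend before adjustment, the coefficient was 0.295 against 0.287 (Ldhb), 0.339 against 0.299 (Aldoa) and 1.01 against 0.836 (Pfkp). For the highest genes the level was not closely matched. The window ran from 965 to 56639 TPM for Ldhb and Mdh1 and from 847 to 4322 TPM for Aldoa.

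The summed level of glycolysis was compared with features of the libraries. The 14 glycolysis genes summed to 2159.8 TPM in library 1, 2627 in library 13 and 3503 in library 4, and to between 4217 and 6094 TPM in the other 9 (all 12: 4311 ± 1102 TPM). The 3 low libraries are those with the lowest spike-in shares and the highest Malat1-locus levels. The sum correlated with the spike-in share of counts over the 12 libraries (Pearson r = 0.86, permutation adjusted p = 0.00170 over 5 relations, and Spearman rho = 0.81, adjusted p = 0.0112). It was r = 0.87 after TPM were rescaled to annotated genes without mitochondrial, Malat1-locus and spike-in features, and r = 0.86 within blocks of replicate numbers (1 to 5, 6 to 10, 11 to 13). Without libraries 1 and 13 it was 0.68 (adjusted p = 0.0731). Among the 9 libraries with a spike-in share of 9.24% or more, r was 0.46 and rho 0.57 (permutation p = 0.217 and 0.122, unadjusted, added after seeing the data). The relation thus did not pass without the libraries of low spike-in share. With fewer libraries and a narrower range of shares, this cannot show that it is absent among the others. In relations added after seeing the data, the Purkinje marker sum also correlated with the spike-in share by Pearson's r (r = 0.67, permutation adjusted p = 0.0271 over 4 added relations, and 0.51 without libraries 1 and 13) but did not pass by rank (rho = 0.55, adjusted p = 0.0947). For the pyruvate and TCA sum the relation did not pass (r = 0.47, permutation adjusted p = 0.123, rho = 0.37, adjusted p = 0.237, and r = 0.28 without libraries 1 and 13).

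The sum also correlated negatively with the Malat1-locus level, in a comparison added after seeing the data (r = -0.87, rho = -0.95, permutation adjusted p = 4e-05 and 8e-05 over 4 added relations, r = -0.89 without libraries 1 and 4). Both are shares of the same library total. The Malat1-locus level itself fell with the spike-in share (r = -0.82, rho = -0.85, permutation adjusted p = 0.0001 and 0.00208 over the same 4 relations). That correlation was r = -0.95 without libraries 1 and 13. The relations of the glycolysis sum to these 2 features are therefore not separate findings. The glycolysis sum rose with the Purkinje marker sum (r = 0.71, adjusted p = 0.0213, rho = 0.71, adjusted p = 0.0314), with r = 0.73 (adjusted p = 0.0731) without libraries 8 and 12 and r = 0.54 (adjusted p = 0.114) after rescaling. Its relation to the Bergmann glia sum did not pass (r = -0.40, rho = -0.37, permutation adjusted p = 0.280 and 0.391). It was r = -0.026 without libraries 2 and 13, -0.50 within blocks of replicate numbers (adjusted p = 0.157) and -0.60 after rescaling (adjusted p = 0.102).

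**Figure D5:**
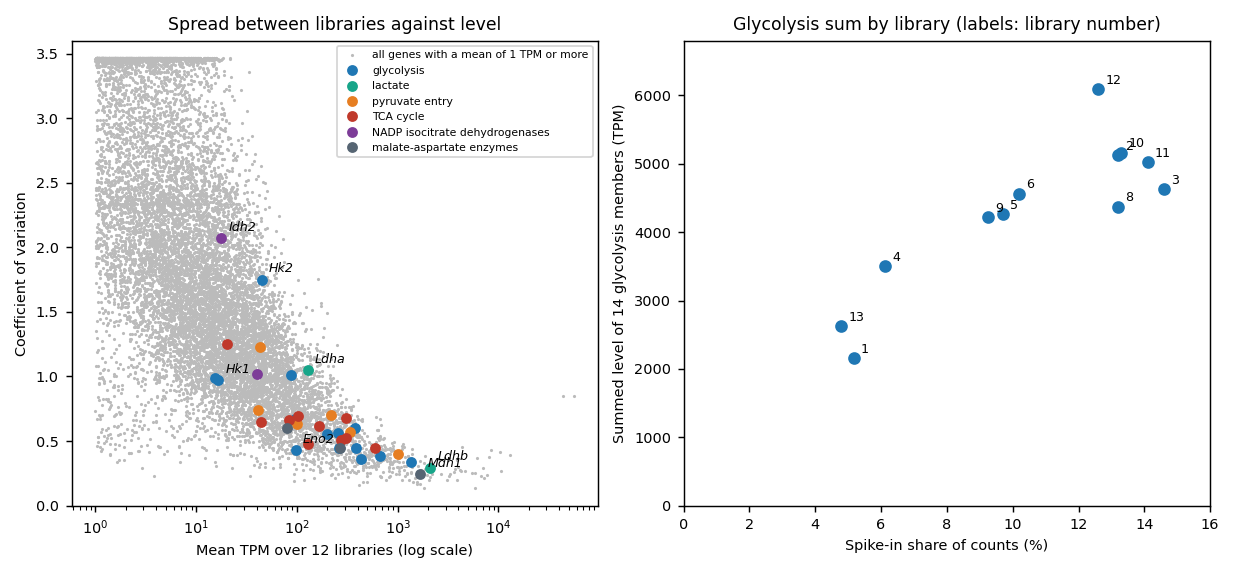
Left, coefficient of variation against mean TPM (log axis) for all genes with a mean of at least 1 TPM (grey) and the 37 members (colours by group). Right, summed TPM of the 14 glycolysis members against the spike-in share of counts, 1 point per library with its number, where libraries 1, 13 and 4 lie lowest on both axes.

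The 16 genes of pyruvate entry and the TCA cycle summed to 2166 TPM in library 1 and 5345 TPM in library 11 (3789 ± 791 TPM). The relation of their sum to the glycolysis sum did not pass (r = 0.38, rho = 0.17, permutation adjusted p = 0.280 and 0.602; r = -0.088 without libraries 1 and 13), nor did that to the Bergmann glia sum (r = 0.32, rho = 0.22, permutation adjusted p = 0.307 and 0.602; r = 0.45 without libraries 2 and 13). The ratio of the glycolysis sum to the pyruvate and TCA sum was 1.16 ± 0.335, from 0.683 in library 13 to 2.04 in library 12.

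Among the 63 related genes, 23 were counted in all 12 libraries and 13 in none. Isozymes without a count included Hk3, Hkdc1, Pgk2, Pklr, Ldhc and Pdha2, most of which are known from blood cells, liver or testis. Also without a count were Pfkfb1, Fbp1, Fbp2 and Pck1, of fructose bisphosphate control and gluconeogenesis, and the transporters Slc16a3 and Slc25a13. A count of 0 over all 12 libraries allows up to 0.0137 CPM, for counting error only.

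Of the partner enzymes, the succinate dehydrogenase subunits led, with Sdhb at 569 ± 197 TPM, Sdha at 214 ± 144 TPM and Sdhd at 130.3 ± 105 TPM, and Pdk1, a pyruvate dehydrogenase kinase, was lowest at 1.55 ± 3.44 TPM. Of the regulators and branch enzymes, Taldo1 (107 ± 92.1 TPM), Pgm1 (86.2 ± 95.6 TPM) and Bpgm (48.5 ± 57.2 TPM) were highest and Pgm2 (0.603 ± 1.23 TPM) the lowest of those with a count. Of the transporters, Slc25a12 (70.1 ± 90.8 TPM), the aspartate-glutamate carrier of the malate-aspartate shuttle, and Slc25a11 (53.5 ± 53.9 TPM), its oxoglutarate carrier, were highest, followed by the monocarboxylate transporter Slc16a1 (17.6 ± 32.5 TPM), and Slc16a7 (0.922 ± 2.53 TPM) was the lowest of those with a count. Slc2a3, the neuronal glucose transporter, was at 17.1 ± 34.6 TPM. Slc25a12 was counted in 12 of 12 libraries and its liver-type relative Slc25a13 in none.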

How the data were processed

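The labels give a Smart-seq protocol and the mm10 assembly, and the deposited text files give GENCODE M4. Which aligner, quantifier and strand setting were used is not given in the sources used here. Expected counts, in which reads shared by several features are split, and TPM, with spike-ins in the total, are the deposited values used, per the file headers. GENCODE M21, built on that assembly, gave symbols, positions and transcript sequences and matched 42462 of 43346 gene identifiers and all 37 members. The 37 genes, the related genes, the markers and the tests were chosen with earlier results of these data known. All 37 members are named, and of the related genes the 3 highest and the lowest nonzero of each list, those of a pair and those without a count; Slc2a3 was named after its values were seen. Some related genes that this rule names, and 1 comparison, are not reported here.

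Isozymes, subunits and Pkm transcripts were compared within libraries by an exact sign-flip test over 4096 sign patterns of the difference of log2(TPM + 1), with NumPy 2.4.6. Expected counts were rounded and genes with a mean of at least 5 fitted in edgeR 4.0.16 (intercept only, TMM), with DESeq2 1.42.0 size factors as an alternative. That test was checked on simulated data. Correlations used 100000 permutations. Copies were found with BLAST 2.17.0. Alternatives were other pseudocounts, count minimums, scalings and size factors, and each library left out in turn.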

Additional observations from a re-analysis of the deposited data

How the results depend on the processing

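Under 22 alternatives each, 10 of the 22 comparisons kept their direction and their side of the threshold in every one, and the number passed lay between 11 and 16. A further 3 pairs that had not passed changed sign, none with a call: Hk1 against Hk2 (-0.29 at a pseudocount of 10 TPM, -0.39 to 0.61 with each library left out, -1.09 without libraries 1 to 5, -0.23 without libraries 1 and 13), Idh3b against Idh3g (-0.20 to 0.26 with each library left out, -0.089 with protein-coding transcripts only, -0.17 without libraries 11 to 13, -0.12 without libraries 1 and 13) and Dld against Dlat (-0.19 without libraries 6 to 10). Leaving out libraries by blocks, or libraries 1 and 13, was chosen after seeing the data. With spike-in size factors 1 member, Gapdh, varied less than the trend, beside 1.97% of all genes in that setting, where the main setting gave 0. The correlation of the pyruvate and TCA sum with the glycolysis sum turned to -0.088 without libraries 1 and 13. That of the glycolysis sum with the Purkinje marker sum no longer passed at 0.73 without libraries 8 and 12 and at 0.54 after rescaling, and that with the spike-in share at 0.68 without libraries 1 and 13. The glycolysis sum was 6270.1 after rescaling and 7469.8 in CPM, and the pyruvate and TCA sum 5528 and 4842; rescaling moved every gene by 0.56 ± 0.11 on the log2 scale. The causes were not tested.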
